A study of Mus musculus with 2 samples.

Results

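The aminoacyl-tRNA synthetases described here are 36 nuclear genes, 20 whose enzymes work mainly in the cytosol and 16 whose enzymes are imported into mitochondria. They were taken by gene symbol: a row belonged to the set if its Ensembl identifier, without the version, carried 1 of 36 listed symbols in the GENCODE M21 annotation. All 36 were found among 43346 rows with an Ensembl identifier, or among 21461 nuclear protein-coding genes. The libraries were polyadenylated RNA sequenced from single ends in G1E-ER4, an immortalized mouse erythroid line labelled male. Its Gata1-null parent cells had been given back GATA-1, the main erythroid transcription factor, joined to an oestrogen receptor domain that hormone switches on. Both libraries came from cells kept for 24 h with 17beta-estradiol at 10 nM and are labelled biological replicates 1 and 2. They form 1 group that carries both the construct and the hormone. Libraries of untreated cells or of the parent line were not analysed here, so no treatment effect was measured and no p-value is given.

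A synthetase joins an amino acid to the end of its tRNA, and the charged tRNA then carries that amino acid to the ribosome. Most amino acids have a cytosolic enzyme and a separate mitochondrial enzyme, both encoded in the nucleus, because mitochondria keep their own tRNAs and ribosomes for the few proteins of mitochondrial DNA. Erythroid cells spend much of their translation on globin and need mitochondria for haem synthesis, and mutations of several mitochondrial synthetases cause inherited anaemia or neurological disease. The enzymes fall into class I and class II by the fold of the catalytic domain, and some cytosolic members sit together in a multisynthetase complex.

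The libraries held 20412826 (replicate 1) and 18564086 (replicate 2) expected counts, of which 126256 and 103109 belonged to synthetases. All 10 erythroid markers checked were detected and summed to 102079 and 117500 transcripts per 1000000 (TPM). Most of the sum was Hbb-bs (61175 and 69726 TPM) and Hba-a2 (35824 and 42224 TPM). Gata1, at 2714 and 3180 TPM, is the gene given back by the construct, so its level says little of cell identity. None of 3 mast cell, 5 granulocyte and macrophage, 3 lymphoid or 4 fibroblast and endothelial markers was detected, and the highest summed level of any of these lists was 0.44 TPM, with Cd79a, the only lymphoid marker above 0, holding all of it. TPM is the expected count per effective transcript length, scaled to 1000000 in each library, so levels of different genes can be compared. Detection here means at least 1 TPM in each of the 2 libraries. Means are given ± SD (n = 2), and the labels do not say whether the replicates were grown apart, so the SD may be partly technical.

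Every synthetase was detected: 36 of 36 reached 1 TPM in both libraries, where 41.2% of nuclear protein-coding genes did. At 10 TPM the count was 28 of 36, beside 27.7% of nuclear protein-coding genes, and at 100 TPM it was 11 of 36, beside 5.47%. The median synthetase stood at 60.3 TPM in replicate 1 and 47.7 in replicate 2. The median of the 8840 detected nuclear protein-coding genes was 21.1 and 20.3 TPM. Of the cytosolic enzymes all 20 passed 10 TPM and 10 passed 100 TPM, while 8 of 16 mitochondrial enzymes passed 10 TPM and 1 passed 100 TPM.

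**Figure D1:**
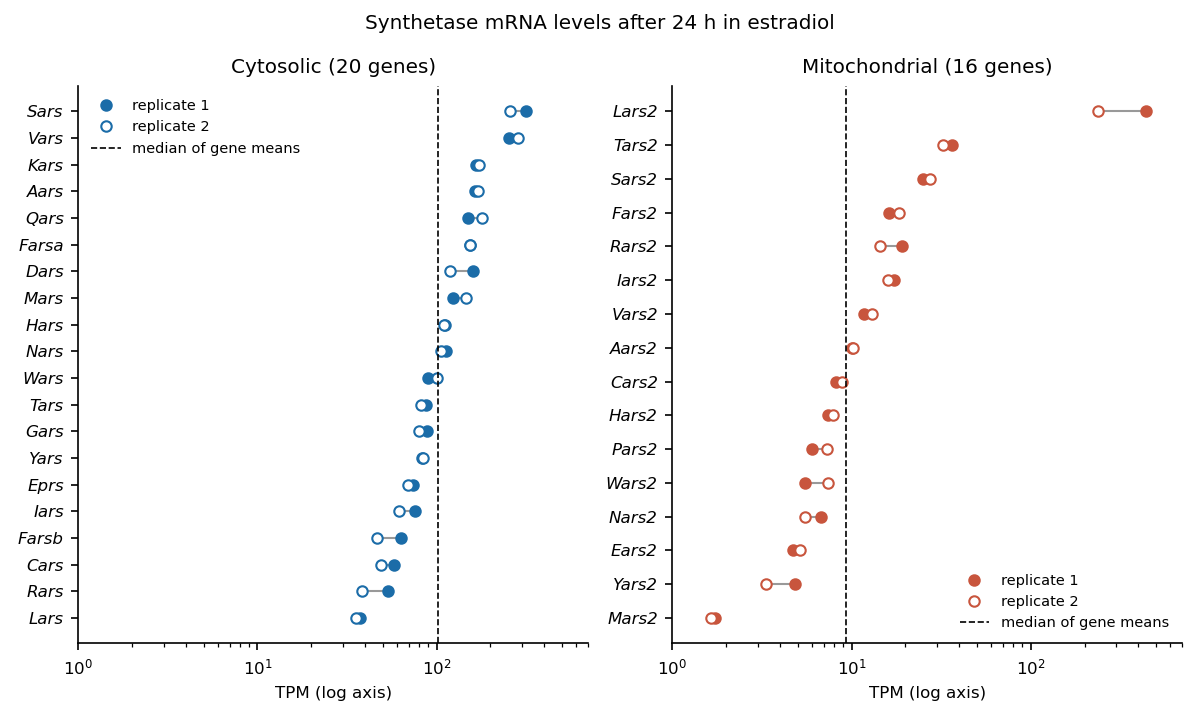
TPM on a log axis of the 20 cytosolic (left) and 16 mitochondrial (right) synthetase genes; filled points are replicate 1, open points replicate 2, and the dashed line is the median of the gene means. Cytosolic genes lie between 35.7 and 317 TPM, and all mitochondrial genes but Lars2 lie between 1.64 and 36.4 TPM.

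Among the cytosolic enzymes, the genes of seryl- and valyl-tRNA synthetase had the highest mean TPM over all their transcripts. Sars, whose enzyme charges serine tRNA and also puts serine on the tRNA that becomes selenocysteinyl-tRNA, stood at 317 TPM in replicate 1 and 258 in replicate 2 (287 ± 41.9, SD, n = 2). Sars lies on chromosome 3 from 108424865 to 108445209 on the minus strand of GRCm38. Vars, the valyl enzyme, held 255 and 284 TPM (270 ± 20.6). Their order differed between the replicates, so neither can be placed above the other in TPM over all transcripts. Coding transcripts were given 100% of Sars TPM but 55.5% and 59.5% of Vars TPM, so on these alone Sars was higher in both libraries. Both were above 95% of detected nuclear protein-coding genes, at 95.6% for Sars and 95.3% for Vars. Gene TPM includes retained-intron transcripts, which took 44.5% and 40.5% of Vars and 0% of Sars and Kars. They also took part of Qars, Farsa and Mars, so the order given here is not one of coding mRNA alone.

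A group of 6 genes between 135 and 170 TPM on average followed. Kars, the lysyl enzyme of cytosol and mitochondria, held 166 and 173 TPM. Aars, the alanyl enzyme, which also edits off wrongly attached serine and glycine, held 164 and 171 TPM. Qars, the glutaminyl enzyme, held 149 and 179 TPM. None of these 3 genes was separated from the next in order, because their ranges over the 2 libraries overlapped. Farsa, the catalytic subunit of cytosolic phenylalanyl-tRNA synthetase, held 153 and 154 TPM. Dars, the aspartyl enzyme, held 159 and 119 TPM. Mars, whose enzyme charges both the initiator and the elongator methionine tRNA, held 124 and 146 TPM. Dars was high in replicate 1 and Mars in replicate 2, and their ranges overlapped.

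Hars (histidyl) at 112 and 109.6 TPM and Nars (asparaginyl) at 113 and 105 TPM completed the upper part of the list. Below the cytosolic median of 102 TPM came Wars (tryptophanyl), Tars (threonyl), Gars (glycyl, which serves both compartments), Yars (tyrosyl), the bifunctional Eprs (glutamyl and prolyl), Iars (isoleucyl) and Farsb, the second phenylalanyl subunit. These 7 ranged from 46.5 to 101 TPM over both libraries. Cars, the cysteinyl enzyme, held 57.6 and 48.9 TPM. Rars, the arginyl enzyme, held 53.8 and 38.2 TPM. The lowest was Lars, the leucyl enzyme, which is also known as a leucine sensor upstream of mTORC1, with 37.4 and 35.7 TPM. Lars was below every other cytosolic member in both libraries, yet above 66.0% of detected nuclear protein-coding genes. Of the 19 neighbouring pairs in this order, 6 did not overlap between the genes' values in the 2 libraries.

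Mitochondrial enzymes were lower as a group, with a median of 9.18 TPM in replicate 1 and 9.49 in replicate 2, against 100.5 and 103 for cytosolic enzymes. The log2 ratio of these medians was 3.45 ± 0.01 (SD, n = 2). Of the 320 combinations of a cytosolic with a mitochondrial gene, 300 had the cytosolic gene higher in both libraries. As a group, 14 of 16 mitochondrial genes lay below all 20 cytosolic genes, and the exceptions were Lars2 and Tars2, whose value in replicate 1 lay above that of Lars in replicate 2. In summed TPM the cytosolic genes held 2422 and 2345 and the mitochondrial genes 623 and 416, a log2 ratio of 2.23 ± 0.38. Without Lars2 the mitochondrial sum was 181 and 179 TPM and the ratio 3.73 ± 0.02, so the ratio of sums moved by more than 1.5-fold with a single gene.

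Lars2, the mitochondrial leucyl enzyme, stood apart from the other 15 mitochondrial genes. It held 442 TPM in replicate 1 and 238 in replicate 2 (340 ± 145, SD, n = 2), the highest mean of all 36 synthetases. It lies on chromosome 9 from 123366927 to 123462666 on the plus strand of GRCm38. In replicate 1 it was above every other synthetase, and in replicate 2 below Sars and Vars.

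The remaining mitochondrial genes had mean levels from 1.69 to 34.4 TPM. Tars2 (threonyl) held 36.4 and 32.5 TPM, below Lars in each library. Sars2 (seryl) held 25.1 and 27.3 TPM. Fars2, the single-chain phenylalanyl enzyme of mitochondria, held 16.2 and 18.4 TPM. Rars2 (arginyl), Iars2 (isoleucyl) and Fars2 overlapped one another: Rars2 had 19.1 and 14.3 TPM, and Iars2 had 17.2 and 16.1 TPM. Vars2 (valyl) held 11.7 and 13.1 TPM and Aars2 (alanyl) 10.1 and 10.2 TPM. Cars2, Hars2, Pars2 (prolyl), Wars2 and Nars2 lay between 5.53 and 8.83 TPM. Ears2, the glutamyl enzyme, held 4.70 and 5.13 TPM. Yars2, the tyrosyl enzyme whose loss is a known cause of myopathy with sideroblastic anaemia, held 4.86 and 3.32 TPM. The lowest was Mars2, the methionyl enzyme, at 1.73 and 1.64 TPM, above 3.37% of detected nuclear protein-coding genes. Its annotated transcript is 11294 bases long, so these TPM rest on 313 and 270 expected counts, more than the 118 and 66 counts of Yars2. Of the 15 neighbouring pairs in the mitochondrial order, 10 did not overlap.

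Enzymes for the same amino acid were set against each other in 16 pairs, and the cytosolic gene had the higher TPM in 15 of them in both libraries. Over the pairs, the median log2 ratio was 3.65 ± 0.20 (SD, n = 2). Methionine had the widest gap in TPM, with Mars over Mars2 by 6.16 in replicate 1 and 6.47 in replicate 2 on the log2 scale (79.6-fold on average). This gap depends on the lengths of Mars2 and of the Mars transcripts: in counts per 1000000 (CPM), which ignore length, it was 3.46 ± 0.23, below that of 8 other pairs. Mars-203, a protein-coding transcript of 621 bases, took 37.9% and 40.3% of Mars TPM on 14.3% and 15.1% of its counts. Retained-intron transcripts took 42.8% and 27.5% of Mars TPM, and on coding transcripts the gap was 5.68 ± 0.46. Vars over Vars2 followed at 4.45 and 4.44, a 21.8-fold gap that was nearly equal in the 2 libraries. Tyrosine (4.37 ± 0.40), asparagine (4.16 ± 0.14) and alanine (4.05 ± 0.04) also lay above 4. Tryptophan (3.89 ± 0.17), glutamate (3.86 ± 0.15), histidine (3.86 ± 0.08), serine (3.45 ± 0.30) and proline (3.43 ± 0.26) lay between 3 and 4.

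Smaller gaps were found for cysteine (2.64 ± 0.24), phenylalanine (2.59 ± 0.21, with Farsa and Farsb averaged) and isoleucine (2.04 ± 0.13). The smallest positive ones in TPM were those of arginine at 1.46 ± 0.06 and threonine at 1.29 ± 0.04. In CPM the arginine ratio was 2.59 ± 0.11, above those of isoleucine (1.69 ± 0.12) and phenylalanine (2.00 ± 0.17), and threonine stayed the smallest at 1.42 ± 0.04. Ratios in CPM were over 1.5-fold larger than in TPM for asparagine (4.89), glutamate (4.87), alanine (4.8) and proline (4.73) as well. Leucine was the exception: Lars over Lars2 was -3.56 in replicate 1 and -2.74 in replicate 2 (-3.15 ± 0.59), because the lowest cytosolic gene met the highest mitochondrial gene. The sign of all 16 ratios was the same in both libraries.

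**Figure D2:**
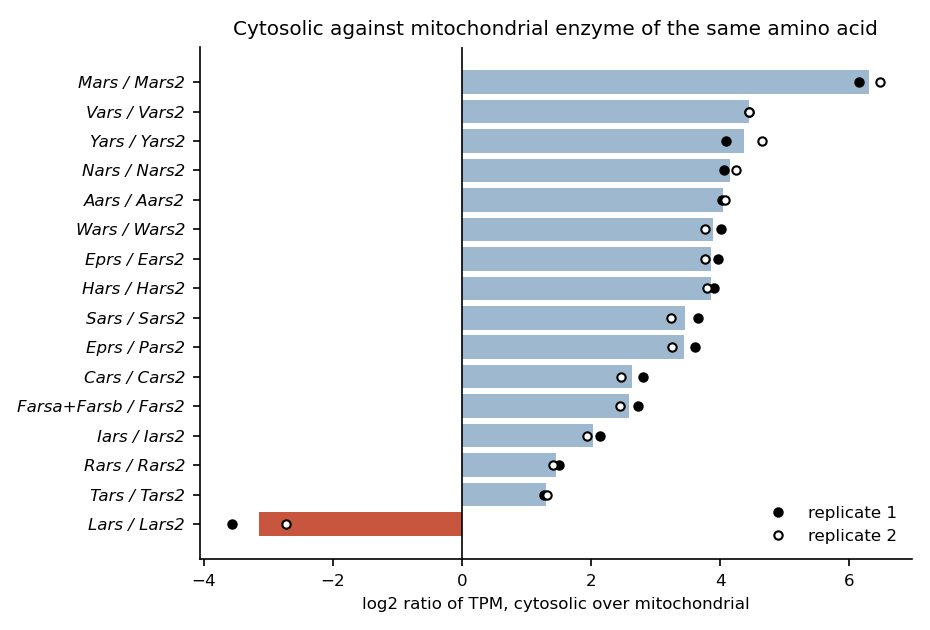
Log2 ratio of TPM, cytosolic over mitochondrial enzyme of the same amino acid, for 16 pairs; bars are means of the 2 libraries and points the single libraries. The leucine pair lies at -3.15 and the other 15 pairs lie between 1.29 and 6.32.

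Lars2 also differed most between the replicates. Its level in replicate 1 was 1.86-fold that in replicate 2, and in CPM the log2 ratio was 0.89 (95% Clopper-Pearson interval 0.86 to 0.92, counting error only). It was the only synthetase over 1.5-fold in TPM, 1 of 36, where 4.24% of detected nuclear protein-coding genes were over 1.5-fold in either direction and 3.22% were so with replicate 1 higher. Counts scaled by TMM, edgeR's trimmed mean of M-values, put Yars2 past 1.5-fold as well, at 1.62-fold on 118 and 66 counts, where its TPM differed 1.46-fold. Rars was next, with replicate 1 higher by 1.41-fold in TPM. In all, 19 synthetases were higher in replicate 1 and 17 in replicate 2. The share of all genes higher in replicate 1 was not computed. The median log2 ratio was 0.046 for synthetases and -0.0017 for detected nuclear protein-coding genes. The counting interval left out equality for 21 of 36, 14 of 20 cytosolic and 7 of 16 mitochondrial, where it did so for 44.6% of detected nuclear protein-coding genes. Such an interval narrows as counts rise, and these shares were not matched for counts. The median of mean levels was 54.0 TPM for synthetases and 20.7 for detected genes, so the shares cannot be compared directly.

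Some noncoding RNA rows were likewise higher in replicate 1. The mitochondrial ribosomal RNAs mt-Rnr1 and mt-Rnr2 held 240 and 108 TPM and 609 and 247 TPM, or 2.23-fold and 2.47-fold more in replicate 1. Gm42418, a noncoding row known to collect ribosomal RNA reads, held 8700 and 3744 TPM, and Gm15564, a noncoding RNA, 77.7 and 31.4 TPM. In the GENCODE M21 transcripts, bases 3278 to 3349 of Lars2-201, after its last coding base at 2905, matched Gm15564-202 with 98.6% identity over 72 aligned bases, the only match among 360 annotated ribosomal RNA, Gm42418 and Gm15564 transcripts searched. Whether reads from such RNA contributed to the Lars2 level was not tested.

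**Figure D3:**
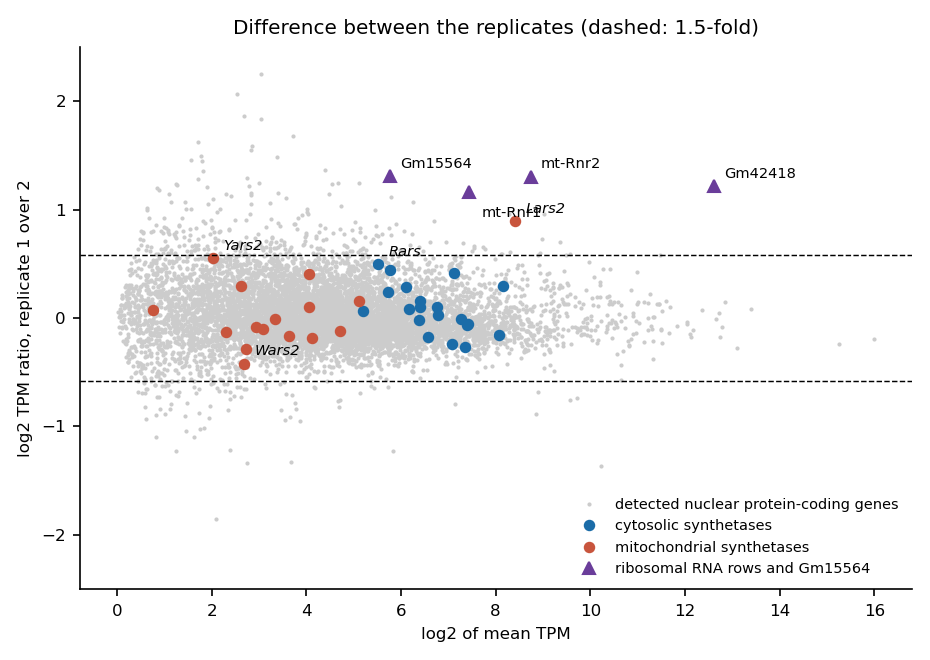
Log2 TPM ratio of replicate 1 over replicate 2 against log2 mean TPM for detected nuclear protein-coding genes (grey), cytosolic (blue) and mitochondrial (red) synthetases, and mt-Rnr1, mt-Rnr2, Gm42418 and Gm15564 (triangles); dashed lines mark 1.5-fold. Lars2 is the only synthetase beyond a dashed line, and the 4 triangles lie above it.

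The multisynthetase complex holds 8 of the cytosolic synthetases (Eprs, Iars, Lars, Mars, Qars, Rars, Kars and Dars) on the scaffold proteins encoded by Aimp1, Aimp2 and Eef1e1. Members of the complex had a median of 99.5 TPM in replicate 1 and 94.2 in replicate 2, and the 12 free cytosolic genes 100.5 and 103. The log2 ratio of the medians was -0.07 ± 0.08 (SD, n = 2), less than the spread between replicates, and it turned positive in CPM (0.20) and without Aars (0.03). No direction can be given for this ratio. Within the complex, mean levels ran from 36.5 TPM for Lars to 170 for Kars. Aimp2 held 155 and 138 TPM, Aimp1 67.0 and 59.1 TPM, and Eef1e1 20.2 and 21.6 TPM. The scaffold genes thus differed in level too, in the same order in both libraries.

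Cytosolic phenylalanyl-tRNA synthetase is a tetramer with equal numbers of both subunits. Farsa exceeded Farsb in both libraries, 153 against 63.1 TPM in replicate 1 and 154 against 46.5 in replicate 2, a log2 ratio of 1.28 and 1.73 (SD 0.32, n = 2).

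Class II genes had a higher median TPM than class I genes, at 87.4 and 79.5 against 45.6 and 36.9. The log2 ratio of class I over class II was -1.02 ± 0.12 (SD, n = 2), with Eprs, which holds an enzyme of each class, left out. Class I holds 9 cytosolic and 9 mitochondrial genes and class II holds 10 and 7, so this ratio mixes class with compartment. Within a compartment it was smaller, -0.57 ± 0.17 among cytosolic genes and -0.25 ± 0.07 among mitochondrial genes. In summed TPM the mitochondrial class I genes, which include Lars2, were higher, at 515 and 307 against 108 and 109. Cytosolic class I genes were lower in sum, at 924 and 978 against 1424 and 1297.

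The transcript tables divide each gene's TPM among its annotated transcripts, which for reads this short is an estimate. For 22 of 36 synthetases more than 90% of TPM was on transcripts with coding sequence in both libraries. The share of all genes past this level was not computed. For 10 synthetases, all among the 22, TPM was on a single transcript, which was the only transcript listed. Coding transcripts here include the nonsense-mediated decay kind, which has an annotated coding sequence. Under 50% was on coding transcripts in both libraries for 3 of 36 (Qars, Rars2 and Wars2). Among detected nuclear protein-coding genes with at least 20 counts, 8.51% were so low. On the protein-coding kind alone, Farsa (44.9% and 44.4%), Nars2 (49.3% and 42.2%) and Vars2 (45.7% and 27.2%) were under 50% too. Wars2 then had 17.9% and 17.0%. The leading transcript of Nars2 was of the nonsense-mediated decay kind in both libraries. Qars had 47.4% and 43.2% of its TPM on coding transcripts, with retained-intron transcripts at 36.7% and 42.0%. A further 15.9% and 14.9% was on a transcript not in GENCODE M21. Its kind was not known and it was counted as without coding sequence, so the call for Qars depends on it. Wars2 had 36.2% and 39.5% on coding transcripts, and its leading transcript was Wars2-202, a retained-intron form of 666 bases at 63.8% and 60.5%. Short transcripts gain in TPM relative to counts: by expected counts none of the 36 was under 50% in both libraries, and Qars stood at 68.8% and 64.1% and Wars2 at 77.8% and 79.4%.

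Rars2 was divided differently in the 2 libraries. In replicate 1 the coding transcript Rars2-201 was given 187 expected counts, and in replicate 2 it was given 0. The 201 counts of replicate 2 went to Rars2-203, with 66.4, and Rars2-204, with 135, neither of which has a coding sequence. Rars2-204 had 0 counts in replicate 1, and the 2 transcripts are of similar length, 1868 bases for Rars2-201 and 1843 for Rars2-204. The gene as a whole had 281 and 201 counts, so the change was in the division and not in whether the gene was read.

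Retained-intron transcripts were also given a sizeable share of several abundant enzymes. They took 44.5% and 40.5% of Vars TPM, 42.8% and 27.5% of Mars, 39.9% and 39.3% of Farsa and 34.4% and 18.9% of Cars. Such transcripts took 0% of Kars, Sars, Gars and Lars2. For Gars and Lars2 only 1 transcript is listed, and all 3 listed for Kars are protein-coding. The annotation thus fixed the 0% of Kars, Gars and Lars2. The leading transcript differed between libraries for Farsb, Vars2 and Yars2. Kars, whose cytosolic and mitochondrial enzymes are made from alternatively spliced mRNAs, had 78.5% and 75.3% on Kars-201, 17.7% and 18.5% on Kars-202 and 3.8% and 6.2% on Kars-203.

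**Figure D4:**
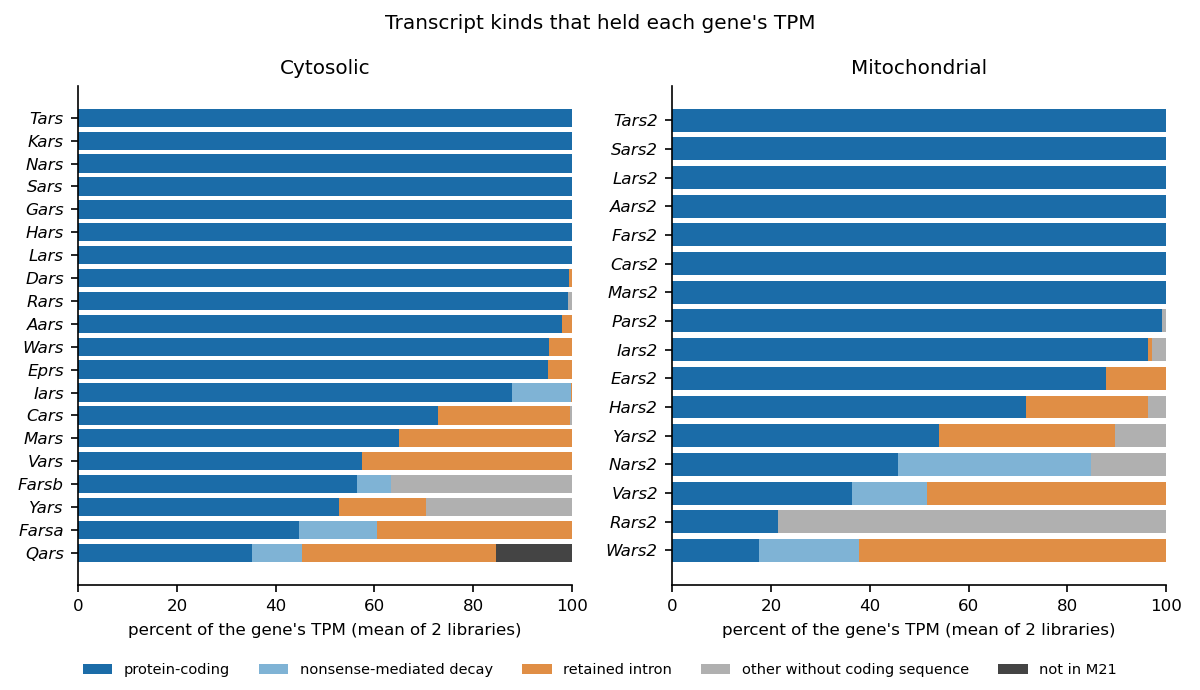
Percent of each gene's TPM, as the mean of 2 libraries, on transcripts of the kinds protein-coding and nonsense-mediated decay (both with coding sequence), retained-intron and other transcripts without coding sequence, and on a transcript not in GENCODE M21. Qars, Rars2 and Wars2 have under 50% on the coding kinds in both libraries, and 22 genes have over 90%.

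Some levels rest on sequence shared with other genes. In windows of 36 bases, the median synthetase had 98.9% of its exonic windows found in no other gene, and 33 of 36 had over 90%. Iars2 had 76.8%, and shared 1999 windows with Rab3gap2, which overlaps it on the opposite strand and held 20.5 and 22.0 TPM. Aars had 85.8%, and shared 1291 windows with Exosc6, which overlaps it on the same strand and is not listed in the tables. Iars had 87.7%, and shared 647 windows with Gm4849. In all, 10 synthetases overlap a protein-coding gene on the opposite strand. Among them are Hars with Hars2 (198 bases) and Mars with the stress-response gene Ddit3 (68 bases), which held 133 and 142 TPM. The shares of all genes with such an overlap, or with over 90% of windows found in no other gene, were not computed. Whether strand was used in counting is not stated in the labels or headers, so reads in these overlaps may belong to either gene.

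Promoter sequence was available for 26 of the 36 genes, 12 cytosolic and 14 mitochondrial, from RefSeq on GRCm38.p6, from 250 bases before to 50 bases after each start. For 22 of the 26, the last 30 bases of a window lay in a GENCODE M21 transcript of the gene. Synthetase genes are known targets of ATF4, which binds a composite C/EBP-ATF element when amino acids are short. TGATGNAA, searched on both strands, was found in 5 of 26 promoters, all cytosolic, and in 4.51% of 27025 genes. The match nearest the start site began at -30 in Gars and -15 in Tars. In Yars, Iars and Aars it began after the start site, at bases 4, 8 and 10. For each gene the match nearest the start site is shown in capitals in 30 bases of the gene's strand, 5′ to 3′, because they are the sequence that these cytosolic genes share:
Yars, chr4:129189895-129189924, plus strand: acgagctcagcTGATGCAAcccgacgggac
Gars, chr6:55037960-55037989, plus strand: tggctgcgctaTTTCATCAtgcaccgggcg
Aars, chr8:111033840-111033869, plus strand: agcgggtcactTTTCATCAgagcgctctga
Iars, chr13:49682126-49682155, plus strand: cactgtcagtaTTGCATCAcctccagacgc
Tars, chr15:11399655-11399684, minus strand: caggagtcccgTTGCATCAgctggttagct

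The 5 cytosolic genes with a match had a median of 84.1 TPM (68.7 to 168), and the 7 cytosolic genes of the table without a match had 154 (54.8 to 287). The ranges of both sets overlapped.

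The E-box CACGTG, which is bound by MYC and related factors, was also found in 5 of 26 promoters, beside 8.09% of all genes, and 3 of the 5 (Aars, Iars and Tars) also held TGATGNAA. Its matches are shown because this overlap concerns the same promoters:
Aars, chr8:111033684-111033713, plus strand: agtcaaccctgtCACGTGacactccatgtc
Iars, chr13:49682049-49682078, plus strand: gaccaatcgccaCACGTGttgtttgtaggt
Tars, chr15:11399622-11399651, minus strand: tccgcctgtggcCACGTGgcgcacgcgcag
Farsb, chr1:78488919-78488948, minus strand: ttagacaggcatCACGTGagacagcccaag
Ears2, chr7:122067048-122067077, minus strand: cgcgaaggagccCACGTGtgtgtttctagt
Ears2 was the only mitochondrial gene among them.

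The GATA motif AGATAA, the class of element that GATA-1 binds, was found in Farsb, Sars2 and Aars2, 3 of 26, beside 12.7% of all genes. These matches began at -181, -219 and -205 bases from the start site. The NRF1 motif, a palindrome found in many genes for mitochondrial proteins, was found in 0 of 26, beside 1.07% of all genes. The motifs do not share letters in any of the windows shown, and a match is a description of sequence only.

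The levels were set beside the amino acid content of the coding mRNA. Codons of 40187 transcripts, which held 93.9% of the TPM on coding transcripts, were weighted by TPM. Leucine was the most used amino acid at 9.29%, followed by alanine at 7.95%, serine at 7.41% and glutamate at 7.17%. Cysteine at 1.64% and tryptophan at 1.02% were the least used. Across the 20 amino acids, use and cytosolic synthetase TPM had a Spearman rho of 0.10, and a Pearson r of 0.06 with log2 TPM. This is a description of amino acids in the same 2 libraries, with Eprs counted for both glutamate and proline, and it carries no p-value.

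The order of the enzymes was thus not the order of use in these libraries. Lars, for the most used amino acid, ranked 20 of 20 by level, with 3.93 TPM per percent of use. Rars had 7.64 TPM per percent of use, and Eprs 9.98 for glutamate. At the other end, Wars had 93.7 TPM per percent and ranked 11 by level, and Mars had 57.5. Serine was the third most used amino acid, and Sars had the highest mean level of the cytosolic genes, though not in replicate 2. In CPM, which give long genes more weight, rho was 0.40.

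**Figure D5:**
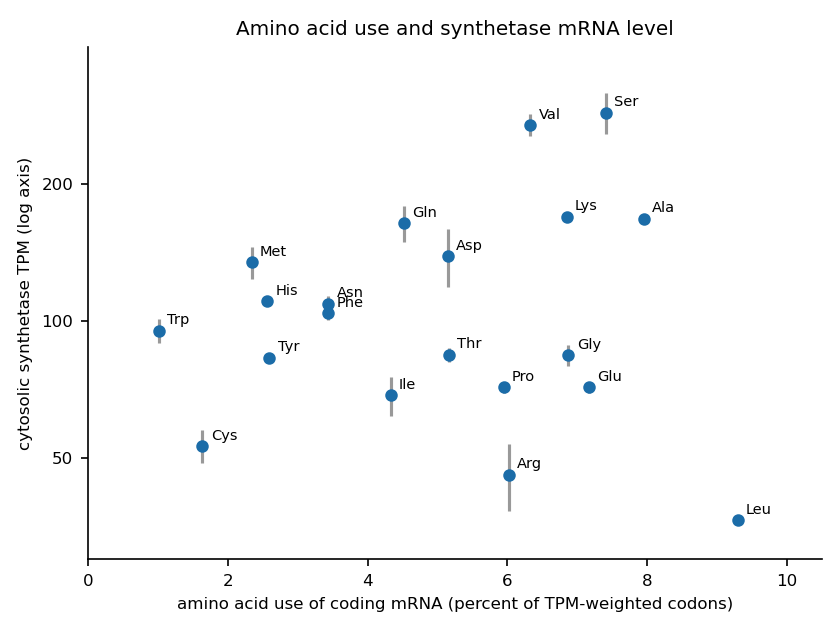
Mean TPM of the cytosolic synthetase (log axis) against the percent of TPM-weighted codons for its amino acid; grey bars span the 2 libraries, Farsa and Farsb are averaged for Phe, and Eprs is plotted for both Glu and Pro. Leu has the highest use and the lowest level, and the 20 points have a Spearman rho of 0.10.

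The other genes of tRNA charging were all detected, 21 of 21, with a median of 25.6 TPM. In mitochondria, glutaminyl-tRNA is made by amidating glutamyl-tRNA with an enzyme of 3 subunits. Their genes differed widely: Qrsl1 held 1.49 and 1.76 TPM, Gatb 16.5 and 17.2, and Gatc 50.9 and 48.1. Mtfmt, which formylates the mitochondrial initiator methionyl-tRNA that Mars2 charges, held 10.0 and 9.98 TPM.

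Among the enzymes that remove wrong amino acids from tRNA, Aarsd1, which clears mischarged alanine tRNA, held 34.5 and 25.6 TPM. Dtd1 and Dtd2, which hydrolyse D-aminoacyl-tRNA, held 21.5 and 20.1 TPM and 15.5 and 13.8 TPM. Prorsd1, a relative of the prolyl editing domain, held 25.3 and 13.9 TPM. It was the only partner gene past 1.5-fold, at 1.82-fold with replicate 1 higher, on 377 and 191 counts.

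Selenocysteine is made on its tRNA after Sars has attached serine. Pstk, which phosphorylates that serine, held 40.7 and 33.7 TPM, Sepsecs, which converts it, held 9.10 and 8.65 TPM, and Eefsec, which delivers the product, held 22.8 and 26.9 TPM. Trnt1, which adds the CCA end that all synthetases charge and whose mutation causes sideroblastic anaemia, held 20.2 and 16.3 TPM. Tarsl2, a threonyl paralogue, held 28.2 and 23.0 TPM, below Tars in both libraries.

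The cytosolic delivery factors had high levels. Eef1a1, which brings charged tRNA to the cytosolic ribosome, held 6900 and 7292 TPM, and its exchange factor subunits Eef1b2, Eef1g and Eef1d held 1323 and 1054, 856 and 947, and 374 and 390 TPM. Tufm, the mitochondrial counterpart of Eef1a1, held 87.4 and 91.0 TPM. As with most synthetase pairs, the mitochondrial gene was below its cytosolic counterpart in both libraries.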

How the data were processed

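Polyadenylated RNA of 2 libraries (1 group) was measured. Per the file manifests, reads were quantified on mm10 with GENCODE M4; which aligner and quantifier were used is not given in the sources used here. The deposited tables hold, per the file headers, expected counts, which share reads among transcripts and need not be whole, TPM, and a posterior mean TPM computed by the authors. Length minus effective length was 35 bases, as for reads of 36 bases.

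Genes, transcript kinds and coordinates came from GENCODE M21 on the same assembly; all but 1 of 183 listed synthetase transcripts matched. Ratios were computed in each library and averaged. Expected counts were rounded only for Clopper-Pearson intervals (95%) and for TMM scaling in edgeR 4.0.16 (R 4.3.3). Intervals cover counting error only and leave out variation between cultures and libraries. Reads had no molecular identifiers, so copies of the same molecule may be counted more than once and the intervals may be too narrow. Sequence similarity used blastn 2.17.0, and the 36-base windows came from M21 transcripts. Only the calculation of replicate ratios and their counting intervals was tried on simulated counts. The other steps were not tested in this way.

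Amino acid use had been planned from a protein table, which was not used here; M21 coding sequences took its place, and protein length and identity were not computed. Values are given for members at or above their compartment's median, the lowest 3 of each compartment, those over 1.5-fold between replicates, those with under 50% of TPM on coding transcripts, and every partner gene; further members were named after their values were seen. For each gene and motif, only the promoter window nearest the start site is reported here. Members and lists were chosen with earlier results of these data known.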

Additional observations from a re-analysis of the deposited data

How the results depend on the processing

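No paired analysis was possible because both libraries belong to 1 group. Values under other settings numbered 166, among them counts and levels that cannot change sign and the single-library values that enter each mean. Of these, 2 changed sign, both for complex over free cytosolic medians (log2): 0.20 in CPM without length, and 0.026 without Aars. That ratio was -0.37 on coding transcripts. For sums it was -0.90, and -1.02 in CPM, but sums set 8 complex genes against 12 free genes and so depend on gene number. The log2 ratio of cytosolic over mitochondrial medians was 3.43 with posterior mean TPM, 3.60 on coding transcripts, 3.65 in CPM, 3.35 without Gars, Kars and Qars, 3.58 without Lars2 and 2.23 for sums. The ratio of sums was 1.75 in CPM and 3.73 without Lars2. The median over same-amino-acid pairs was 3.86 on coding transcripts. Class I over class II was -1.17 on coding transcripts, -0.88 with Eprs as class I, -0.57 for cytosolic genes, -0.25 for mitochondrial genes and -1.19 without Lars2. The count of detected genes was 11 at 100 TPM, genes over 1.5-fold were 2 after TMM scaling, genes under 50% coding were 0 by expected counts, and TGATGNAA promoters were 3 of 26 before the start, beside 3.91% of all genes. Spearman rho of use and level was 0.40 in CPM, 0.0026 without Aars, and 0.025 and 0.12 without replicate 1 or 2. None of the 95 other values of the 16 single pairs, which include the single-library values, changed sign. Rars over Rars2 has no value on coding transcripts in replicate 2. The settings without Lars2, the leucine pair or Aars were chosen after seeing the data. The causes were not tested. With 2 libraries and no control, the SD is imprecise, and division among transcripts by 36-base reads limits the low genes.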
